A study of Mus musculus with 5 samples.

Results

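PT_f is the smallest of the 5 proximal tubule clusters in the deposited annotation of adult mouse kidney cells, and its members were taken as every cell that carries this cluster name. There were 275 such cells of 14197 in all, 25 in KO female, 9 in KO male, 152 in KO mix, 23 in WT female and 66 in WT mix. The mice were *Fame* (*Ccdc198*) knockouts, with a double STOP inserted behind the start codon by CRISPR/Cas9, and their wild type littermates on the FVB/Ant background. KO female and KO male held knockout cells of 1 sex, KO mix knockout cells of pooled males and females, WT female wild type females, and WT mix pooled wild type males and females. The ages beyond adult and the number of mice per library were not given in the sources used here, so p-values measure the spread between libraries, which may be technical.

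The proximal tubule takes back most of the filtered sugar, amino acids, phosphate and protein. Its S1 and S2 segments lie in the cortex, and its last segment, S3, runs straight into the outer medulla and carries its own set of amino acid and organic anion transporters. In mice the S3 segment is known to differ strongly between the sexes, with steroid and xenobiotic enzymes and transporters that depend on androgen. The straight segment is covered by a larger cluster of the annotation, PT_s, which is used below for comparison.

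The marker genes supplied for PT_f are *Slc7a13*, an S3 transporter for cystine and acidic amino acids, *Cyp7b1*, an oxysterol hydroxylase, and *Acsm3*, a medium-chain acyl-CoA ligase. They did not mark the cluster in every library. The level of *Slc7a13* was 0 CPM (UMIs scaled to the library's PT_f total) in KO female, 1601 in KO male, 82.6 in KO mix, 8.22 in WT female and 370 in WT mix. *Cyp7b1* had 0, 698, 50.7, 0 and 230 CPM in the same order of libraries. *Acsm3* had 0, 903, 63.7, 0 and 335 CPM. In both female libraries these markers were thus at or near 0, where 3 counts, taken as the floor, correspond to 15.9 CPM in KO female and 24.7 CPM in WT female, and they were highest in the male library. In PT_s *Slc7a13* and *Acsm3* followed the same order of libraries, with 2.18, 954, 482, 3.35 and 681 CPM of *Slc7a13*. *Cyp7b1* was higher in PT_f than in PT_s in the libraries with male cells, with 0.682 CPM in KO male, 15.1 in KO mix and 4.78 in WT mix for PT_s, where WT female had 0.209 CPM. The supplied markers are therefore not used to define the cluster here.

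*Slc7a12* had the highest mean ratio of PT_f to PT_s with 10 CPM added, a log2 value of 6.11, while with 1 CPM added it had 7.08 and *Igf2* 7.53. This neighbour of *Slc7a13* in family is an amino acid transporter of the same light chain group, known for its higher level in female kidney. PT_f held 1748 CPM of *Slc7a12* in KO female, 27.4 in KO male, 1660 in KO mix, 2235 in WT female and 747 in WT mix. PT_s held 5.99, 2.05, 44.1, 7.32 and 4.48 CPM. PT_f was above PT_s in all 5 libraries, though KO male rests on 2 UMIs in 1 of its 9 cells. *Slc7a12* lies at chr3:14480697-14505830 on the plus strand of GRCm38 (ENSMUSG00000039710), and *Slc7a13* at chr4:19818725-19842218, also on the plus strand (ENSMUSG00000041052).

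**Figure D1:**
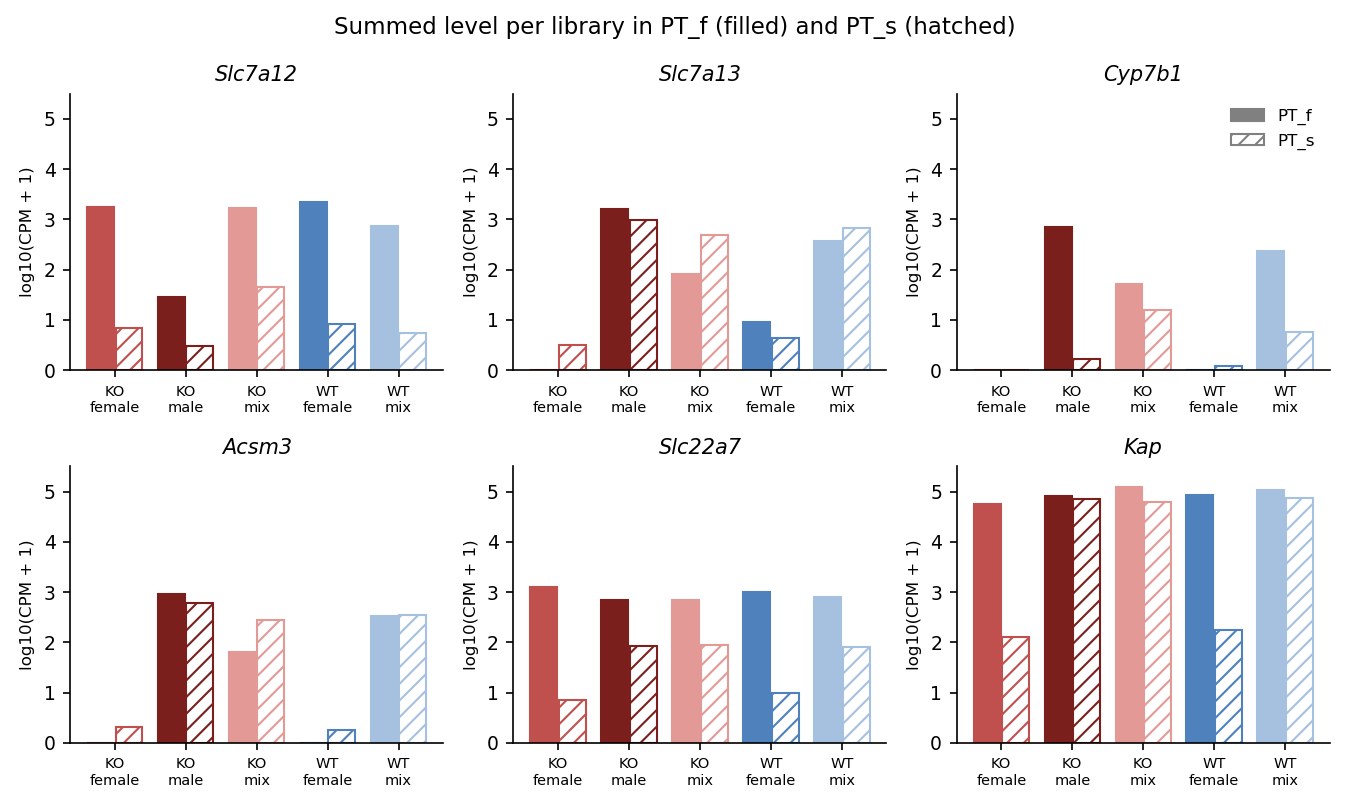
Level of 6 genes in PT_f (filled bars) and PT_s (hatched bars) per library, as log10 of CPM plus 1 from summed UMIs. *Slc7a12* and *Slc22a7* stand above PT_s in all 5 libraries, while *Slc7a13*, *Cyp7b1* and *Acsm3* of PT_f are at or near 0 in the female libraries and highest in KO male, and *Kap* of PT_s is low in the female libraries only.

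The PT_f cells lay together in the deposited map of the cells. Of the 15 nearest cells of each PT_f cell in the UMAP, 99.7% were also PT_f and 0.29% were PT_s. Since the clusters and the map came from the same genes, comparisons of PT_f with PT_s are given as descriptions with no test. The letter f in the name stands for female in the study's legend. The male library nevertheless held 9 of the cells, so the cluster is called PT_f throughout.

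PT_f cells had fewer UMIs than PT_s cells in each library. The median was 2115 in KO female, 7794 in KO male, 4081 in KO mix, 1918 in WT female and 3299 in WT mix, against 5869, 8708, 5318, 6321 and 4113 for PT_s. Median mitochondrial shares of PT_f were between 7 and 12.1% in the single-sex libraries and 28.4 and 30.8% in KO mix and WT mix, which were a separate run of the annotation. Median doublet scores of PT_f, from 0.0781 to 0.122, were below those of PT_s, from 0.0965 to 0.148. Over all cells 50 shared a barcode with a cell of another library, of which 1 was a PT_f cell.

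The contribution of PT_f to the proximal tubule differed between libraries by more than counting error. It made up 1.36% (95% exact binomial interval 0.879 to 1.99) of the proximal tubule cells in KO female, 0.839% (0.384 to 1.59) in KO male, 7.58% (6.46 to 8.83) in KO mix, 1.53% (0.972 to 2.29) in WT female and 3.14% (2.44 to 3.98) in WT mix. The 2 pooled libraries, which share a run, were the highest. Knockout libraries averaged 3.26% ± 3.75 (SD, n = 3) and wild type libraries 2.34% ± 1.14 (SD, n = 2). The difference of 0.924 percentage points gave p = 1 in an exact two-sided permutation test, in which the smallest possible p is 0.1. For the numbers of cells, edgeR gave a log2 fold change of 0.39 (SE 1.05, adjusted p = 0.891 over 19 cell types). Without KO mix the log2 fold change was -1.07 and the difference of the shares -1.24 points, and without WT female the log2 fold change was -0.06, so the direction depended on single libraries. Intervals and floors cover counting error only.

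**Figure D2:**
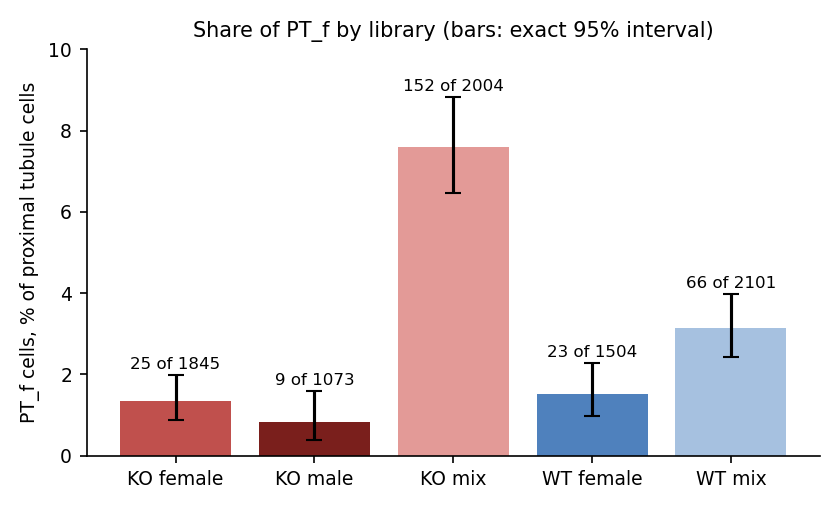
PT_f cells as a percentage of all proximal tubule cells in each library, with exact 95% binomial intervals and the cell numbers above the bars. KO mix at 7.58% and WT mix at 3.14% are above the 3 single-sex libraries, which lie between 0.839 and 1.53%.

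Of 4605 genes with a mean of at least 20 CPM over the sums, 175 were higher in PT_f than in PT_s, meaning a mean log2 ratio of 1 or more with 10 CPM added and a value above 0 in each of the 4 libraries with at least 10 PT_f cells. This is 3.8% of the genes tested. With the opposite sign 244 genes were lower, which is 5.3%. KO male, with 9 cells, was left out of the mean, and with it included 109 genes were higher and 194 lower.

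Among the 20 genes with the highest ratios, *Slc7a12* had a mean log2 ratio of 6.11 ± 0.96 (SD, n = 4 libraries). *Kcnk1*, a two-pore potassium channel, had 5.48 ± 0.77, and *Cryab*, a small heat shock protein, 5.37 ± 0.12. *Cryab* was one of the steadiest of these genes, with 1487, 1629, 1676, 2440 and 1051 CPM in PT_f and 22.2, 29.6, 34.3, 50.2 and 16.4 CPM in PT_s, in the library order used above. *Slc22a7*, the organic anion transporter OAT2, had 4.53 ± 1.75. Its level in PT_f was 1259 CPM in KO female, 698 in KO male, 705 in KO mix, 1019 in WT female and 813 in WT mix, against 6.17, 83, 87.2, 8.99 and 81.3 CPM in PT_s. *Slc22a7* of PT_f was thus highest in the female libraries, while in PT_s it was lowest there. *Scd1*, the desaturase that makes monounsaturated fatty acids, had a mean log2 ratio of 4.97 ± 1.16. *Aadat*, an aminotransferase of the kynurenine and lysine pathways, had 4.78 ± 0.99 and reached 11521 CPM in KO female and 10608 CPM in WT female. *Napsa*, an aspartic protease, reached 38729 and 41215 CPM in the same libraries.

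Several leading genes were low in the male cells. *Igf2*, a growth factor, had 282 CPM in KO female, 0 in KO male, 346 in KO mix, 238 in WT female and 261 in WT mix. Its UMIs came from few cells, 2 of 25 in KO female, 59 of 152 in KO mix, 3 of 23 in WT female and 15 of 66 in WT mix. *Aadat* had 493 CPM in KO male against 219 CPM in its PT_s, and *Ly6f*, a cell surface protein gene, had a log2 ratio of -0.45 in KO male, the only one of the 20 leading genes below 0 there. The others were *Serpina1f*, *Snhg11*, *Rnf24*, *Aqp4*, *Spidr*, *Arg2*, *Capg*, *Mettl7a2*, *Hpgd* and *Mep1b*, with mean ratios between 3.77 and 4.69. Pooled over libraries, PT_f had the highest level of the 19 cell types for 16 of the 20 genes. Their choice by the ratio to PT_s and the pooled PT_f level favours such a rank. The share over all genes was not computed, so the count is a description only. *Cryab*, *Aqp4*, *Capg* and *Hpgd* were higher in another type, for example *Aqp4*, a water channel, with 215 CPM in PT_f and 459 CPM in collecting duct principal cells. By library *Aqp4* of PT_f had 430 CPM in KO female, 109 in KO male, 138 in KO mix, 485 in WT female and 167 in WT mix. The pooled value thus lies between those of the female libraries and those of the others.

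**Figure D3:**
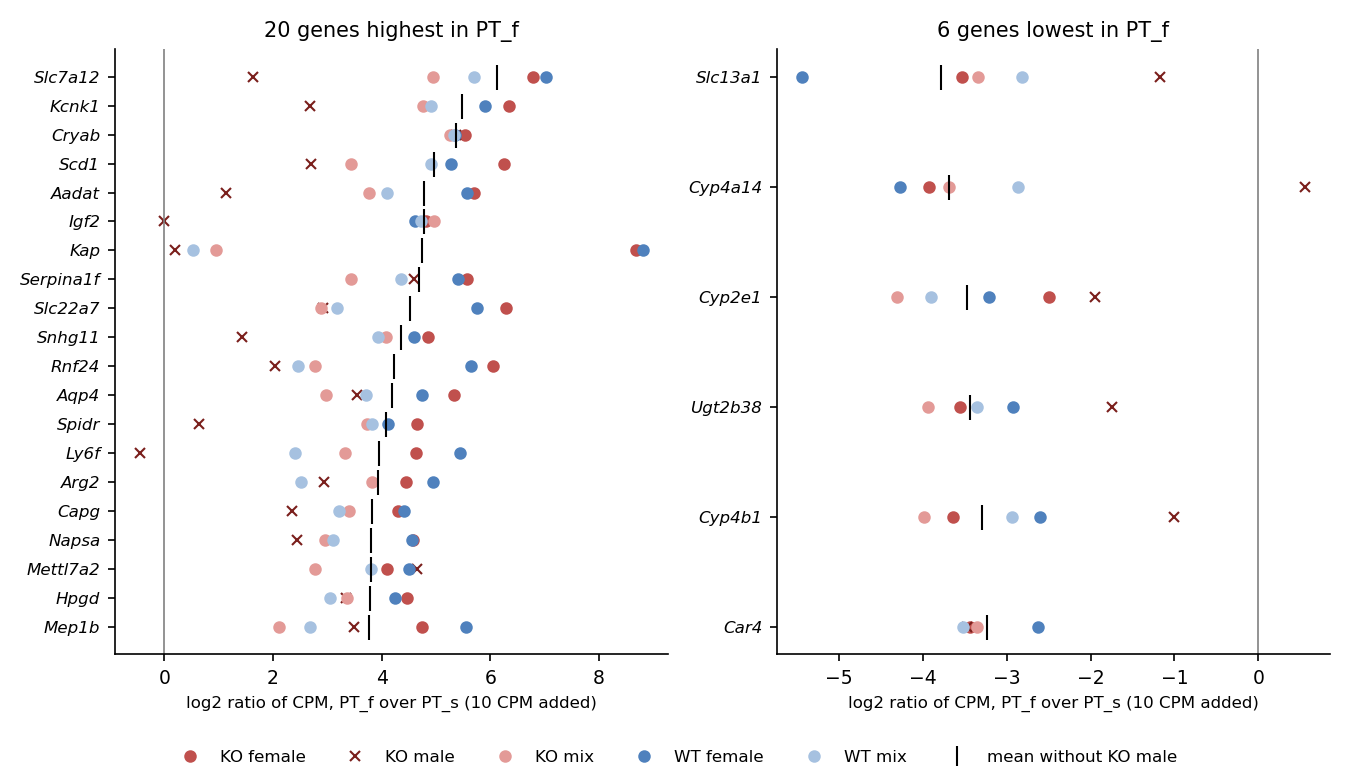
Log2 ratio of CPM in PT_f over PT_s, with 10 CPM added, for the 20 genes highest and the 6 genes lowest in PT_f. Points are libraries, the cross is KO male with 9 cells, and the black tick is the mean of the other 4 libraries, from 6.11 for *Slc7a12* to 3.77 for *Mep1b* on the left and from -3.78 for *Slc13a1* to -3.24 for *Car4* on the right.

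*Kap* encodes the kidney androgen-regulated protein, one of the most abundant transcripts of the male proximal tubule. In PT_f it had 55976 CPM in KO female, 81450 in KO male, 121411 in KO mix, 84115 in WT female and 108076 in WT mix. In PT_s it had 127 CPM in KO female, 71551 in KO male, 63103 in KO mix, 178 in WT female and 74630 in WT mix. The 2 clusters were thus apart in females by a log2 ratio of 8.68 in KO female and 8.80 in WT female, and close in KO male with 0.19. In the female libraries 22 of 25 and 23 of 23 PT_f cells held a *Kap* UMI, against 26.6 and 30.1% of glomerular endothelial cells, which should lack the transcript.

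The sequences upstream of the start sites are shown for 3 genes of unlike pattern, *Kap* (high in PT_f of every library), *Acsm3* (at 0 in PT_f of both female libraries) and *Serpina1f* (a serpin gene higher than in PT_s in all 5 libraries). Each is the 250 bases before the RefSeq start site on GRCm38.p6, written along the gene's strand, with capitals marking letters that match, on either strand, the promoter element TATAAA, the androgen receptor half-site AGAACA, the HNF1 half-site GTTAAT, the STAT5 motif TTCNNNGAA or the nuclear receptor half-site AGGTCA, chosen with the levels known. The windows are chr6:133853668-133853917 on the minus strand for *Kap*, chr7:119760673-119760922 on the plus strand for *Acsm3* and chr12:103695530-103695779 on the minus strand for *Serpina1f*.
Kap: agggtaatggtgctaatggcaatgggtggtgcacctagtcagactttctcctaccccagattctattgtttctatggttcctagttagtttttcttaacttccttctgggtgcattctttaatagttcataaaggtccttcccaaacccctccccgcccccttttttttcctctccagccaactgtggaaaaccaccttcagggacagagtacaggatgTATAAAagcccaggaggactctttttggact
Acsm3: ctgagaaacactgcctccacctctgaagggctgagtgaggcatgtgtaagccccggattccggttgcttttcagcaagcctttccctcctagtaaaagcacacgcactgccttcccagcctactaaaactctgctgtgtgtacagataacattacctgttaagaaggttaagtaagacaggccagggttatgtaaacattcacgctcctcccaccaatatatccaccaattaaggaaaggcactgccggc
Serpina1f: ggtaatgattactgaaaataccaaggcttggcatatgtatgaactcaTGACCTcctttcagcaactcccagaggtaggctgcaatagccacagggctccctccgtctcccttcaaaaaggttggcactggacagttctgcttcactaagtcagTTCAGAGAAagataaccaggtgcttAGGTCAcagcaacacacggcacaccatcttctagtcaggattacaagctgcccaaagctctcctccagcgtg
The *Kap* window held TATAAA from base -31, which 12.4% of the 32851 windows of this length held on either strand. The *Serpina1f* window held 1 match to TTCNNNGAA, held by 7.02% of windows, and 2 to AGGTCA, held by 14.0%. AGAACA was held by 16.1% and GTTAAT by 6.43% of windows, and no letters of the *Acsm3* window matched. A match is a description of letters and not a binding site.

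S3 genes were mostly higher in PT_f than in PT_s. Of the 16 listed, all tested, 11 were higher and 0 lower by the rule above, with a median log2 ratio of 2.46, against -0.09 over all genes tested. Of all genes tested 3.8% were higher and 5.3% lower. The list was chosen with earlier results of these data known, so its count is a description and no test of the segment. Those that did not pass were *Slc7a13* (-0.78), *Acsm3* (-0.58), *Slc5a8* (-0.18), *Slc3a1* (0.96) and *Cyp7b1* (1.32), with mean log2 ratios in brackets. The list shares *Slc7a12*, *Slc22a7*, *Napsa*, *Rnf24* and *Serpina1f* with the leading genes. *Bcat1*, a branched-chain aminotransferase, had 95.6, 260, 106, 156 and 152 CPM in PT_f in the order of libraries used above, and at most 2.37 CPM in PT_s. Of the organic anion transporters, *Slc22a13* had a mean log2 ratio of 3.38 ± 0.42 and *Slc22a19* 3.35 ± 0.44. *Slc6a18*, a transporter of neutral amino acids, had 1020, 465, 942, 772 and 817 CPM in PT_f against 380, 212, 274, 365 and 228 CPM in PT_s. *Atp11a*, a lipid flippase, had a mean ratio of 1.58 ± 1.64 and -0.35 in KO male.

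Genes of the earlier segments were lower. Of 12 S1 and S2 genes, a list also chosen with earlier results known, 11 were tested and 10 were lower, with a median log2 ratio of -2.02. *Slc34a1*, the sodium phosphate cotransporter, had 898, 1396, 504.1, 551 and 490 CPM in PT_f against 3474, 3060, 2617, 3060 and 2853 CPM in PT_s. *Slc22a6* and *Slc22a8*, the organic anion transporters OAT1 and OAT3, had mean ratios of -2.97 ± 0.30 and -3.12 ± 0.67. *Slc7a7* was the tested gene of the list that did not pass. Of 10 general proximal tubule genes 0 were higher and 4 lower than in PT_s, and they summed to between 9308 and 12802 CPM in PT_f and between 13930 and 26029 CPM in PT_s. *Lrp2*, the endocytic receptor megalin, had 3267, 1218, 2184, 2572 and 1467 CPM in PT_f.

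The 15 genes lowest in PT_f against PT_s held drug and lipid enzymes and transporters. *Slc13a1*, a sulfate transporter, had a mean log2 ratio of -3.78 ± 1.15, and *Cyp4a14*, a fatty acid hydroxylase, -3.69 ± 0.60 with 0.55 in KO male, where it was low in both clusters. *Miox*, the oxygenase that breaks down myo-inositol, had 685, 1054, 278, 477 and 342 CPM in PT_f and 6525, 2210, 2745, 5979 and 1943 CPM in PT_s. *Cyp2e1*, *Ugt2b38* and *Cyp4b1*, of drug metabolism, had mean ratios of -3.48, -3.44 and -3.29. *Car4*, *Slc22a8*, *Nat8*, *Slc51a*, *Slc22a6*, *Acsm2*, *Acmsd* and *Nox4* were also among them, with means from -3.24 to -2.91. In KO male the ratios of *Nat8* and *Acmsd* were -0.51 and -0.55.

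Among transporters and enzymes the direction was divided. Of 15 tested amino acid transporters 3 were higher (*Slc7a12*, *Slc6a18* and the peptide transporter *Slc15a2*) and 4 lower. Of 7 sugar and phosphate transporters 2 were higher, the fructose carriers *Slc2a5* (1.07 ± 0.18, with -0.83 in KO male) and *Slc5a10* (1.09 ± 0.27, with -0.37 in KO male), and 3 lower, *Slc2a2*, *Slc34a1* and *Slc5a2*. Of 20 organic ion transporters 4 were higher and 4 lower. Of 25 genes of fatty acid activation and oxidation 2 were higher and 6 lower. *Acadm*, the medium-chain acyl-CoA dehydrogenase, was higher by a mean log2 ratio of 2.54 ± 0.43, with 5721, 4558, 3888, 6376 and 3230 CPM in PT_f against 781, 1264, 840, 809 and 719 CPM in PT_s. Of 13 cytochrome P450 genes 1 was higher, *Cyp2a4*, and 4 lower. Of 8 steroid and glucuronide enzymes *Akr1c18*, a hydroxysteroid dehydrogenase, was higher (3.63 ± 0.75) and 4 were lower.

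For protein uptake and iron genes the counts stand beside the shares over all genes tested, 3.8% higher and 5.3% lower. None of 8 protein uptake genes passed the rule in either direction, which is near those shares, with a median log2 ratio of -0.09. *Dab2*, *Clcn5* and *Ap2m1* were below 0 in all 5 libraries, with means of -0.80, -0.69 and -0.63. *Lrpap1* was above 0 in all 5, with a mean of 0.66. Of 7 iron genes 1 was lower, the iron exporter *Slc40a1* (-1.41 ± 0.73). *Fth1*, the ferritin heavy chain, had 5864, 6912, 11457, 6360 and 11798 CPM in PT_f and 5619, 6110, 11570, 5672 and 12047 CPM in PT_s, so its level followed the run of the library in both clusters.

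Markers of other cell types differed in their levels in PT_f. The 3 principal cell markers summed to between 0 and 41.1 CPM per library, the 5 endothelial markers to between 0 and 27.4 CPM and the 3 podocyte markers to between 0 and 19.5 CPM, with *Nphs1* at 0. The 3 descending thin limb markers summed to between 0 and 54.5 CPM, with *Slc14a2* at 0. The 3 thick limb markers summed to between 68.4 and 479 CPM in PT_f and between 164 and 684 CPM in PT_s. The 3 distal convoluted tubule markers summed to between 0 and 212 CPM in PT_f and between 32.2 and 179 CPM in PT_s, and the 4 myeloid markers to between 0 and 63.7 CPM in PT_f and between 18.2 and 118 CPM in PT_s. The 3 intercalated cell markers summed to between 3.89 and 32.9 CPM in PT_f. Red cell genes reached 6592 CPM in KO female and 6491 CPM in WT female, against 6204 and 4319 CPM in PT_s of these libraries. The injury genes *Havcr1* and *Lcn2* were at or below 3.89 CPM, while *Krt8*, a keratin gene, was higher than in PT_s (1.21 ± 0.42, with -0.27 in KO male). Of 14 genes of the dissociation response 6 were higher and 0 lower, with a median log2 ratio of 0.96. *Atf3*, an immediate early transcription factor, had 21.2, 13.7, 62.3, 16.4 and 109 CPM in PT_f against 2.18, 2.05, 15.1, 3.35 and 19.7 CPM in PT_s. With each cell thinned to 1000 UMIs, 131 genes were higher and 485 lower in PT_f, and *Slc7a12* had a mean log2 ratio of 5.80. The part of the dissociation response in the ratios was not tested.

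The sex of the cells was read from *Xist*, the RNA that silences an X chromosome in female cells, and from the Y-linked genes *Ddx3y*, *Kdm5d*, *Uty* and *Eif2s3y*. Of the PT_f cells 133 held only *Xist*, 17 only Y-linked UMIs, 5 both and 120 neither. *Xist*-only cells were 88.7% (82.5 to 93.3) of the 150 cells with a single sign, a share that includes the single-sex libraries. In KO female it was 12 of 12 cells, in KO male 0 of 7, in KO mix 88 of 92, in WT female 9 of 9 and in WT mix 24 of 30. Many cells showed no sign, 56 of 152 in KO mix and 35 of 66 in WT mix, so these shares hold for the cells with a sign only. The cells without a sign were spread unevenly over the kinds of cells described below. In KO mix the share was 95.7% (89.2 to 98.8) in PT_f and 69.8% (65.1 to 74.3) in PT_s. In WT mix it was 80.0% (61.4 to 92.3) in PT_f and 30.3% (25.3 to 35.8) in PT_s. Over all cells the share was 77.3% in KO mix and 32.1% in WT mix, so the pools differed in their makeup by sex. With each cell thinned to 1000 UMIs, which left out no cell, *Xist*-only cells were 90.6% of the 85 PT_f cells with a single sign, and with at least 2 UMIs asked for, 92.9% of 127. The distance to PT_s was smaller after thinning, with 98.1% (89.9 to 99.95) in PT_f and 89.3% (84.3 to 93.2) in PT_s of KO mix. In WT mix it was then 78.9% (54.4 to 93.9) in PT_f and 52.6% (43.8 to 61.2) in PT_s, so that the intervals overlapped in both pools.

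PT_f held 2 kinds of cells by their transcripts. Of the 275 cells 190 held *Slc7a12* and none of *Slc7a13*, *Cyp7b1* and *Acsm3*, 48 held any of these 3 without *Slc7a12*, 22 held both and 15 neither. Of the 22 with both, 18 held a single UMI of the 3 markers. Cells with *Slc7a12* alone were 21 of 25 in KO female, 0 of 9 in KO male, 120 of 152 in KO mix, 19 of 23 in WT female and 30 of 66 in WT mix. Cells with the markers alone were 0, 8, 11, 0 and 29 in the same libraries. KO mix thus had 7.24% (3.67 to 12.6) of the marker kind and WT mix 43.9% (31.7 to 56.7). Thinned to 1000 UMIs the shares were 7.89% and 39.4%. Cells with both then fell to 2 in all and cells with neither rose to 60. Such a fall was bound to follow where a single marker UMI made most of the cells with both, so it does not show that the kinds are separate. In glomerular endothelial cells, with a median of 1706 UMIs in KO mix and 1532 in WT mix, 14.2% and 16.3% held a UMI of the 3 markers, and 3.72% and 1.81% held *Slc7a12*. In PT_f, with medians of 4081 and 3299 UMIs, 17.8% and 50% held a marker UMI and 89.5% and 51.5% held *Slc7a12*. The share of PT_f cells with a marker UMI was thus near that of the endothelial cells in KO mix and above it in WT mix, at unlike depth. By summed level the markers had 197 CPM in PT_f and 76.7 CPM in endothelial cells of KO mix, and 934 and 94.2 CPM in WT mix. Cells with the markers alone held 2 to 18 marker UMIs each in KO mix. The part of free RNA in these values was not tested.

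**Figure D4:**
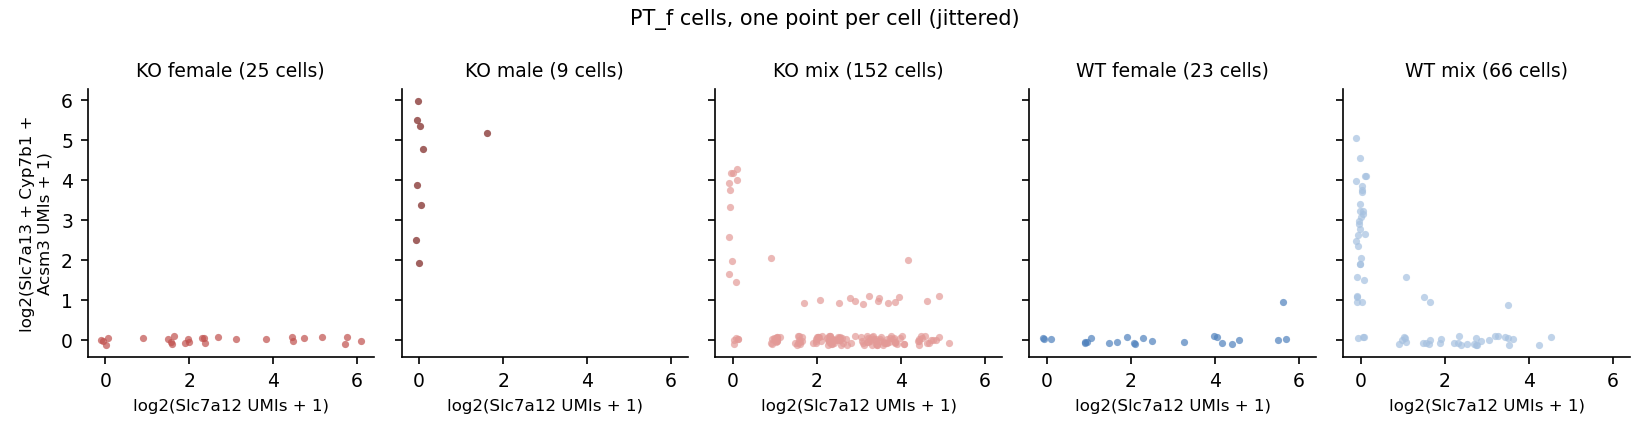
UMIs of *Slc7a12* and summed UMIs of *Slc7a13*, *Cyp7b1* and *Acsm3* in each PT_f cell, as log2 of UMIs plus 1 with jitter. Female libraries lie along the lower axis, the 9 KO male cells lie high on the left, and the pooled libraries hold both arms with few cells between them.

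**Figure D5:**
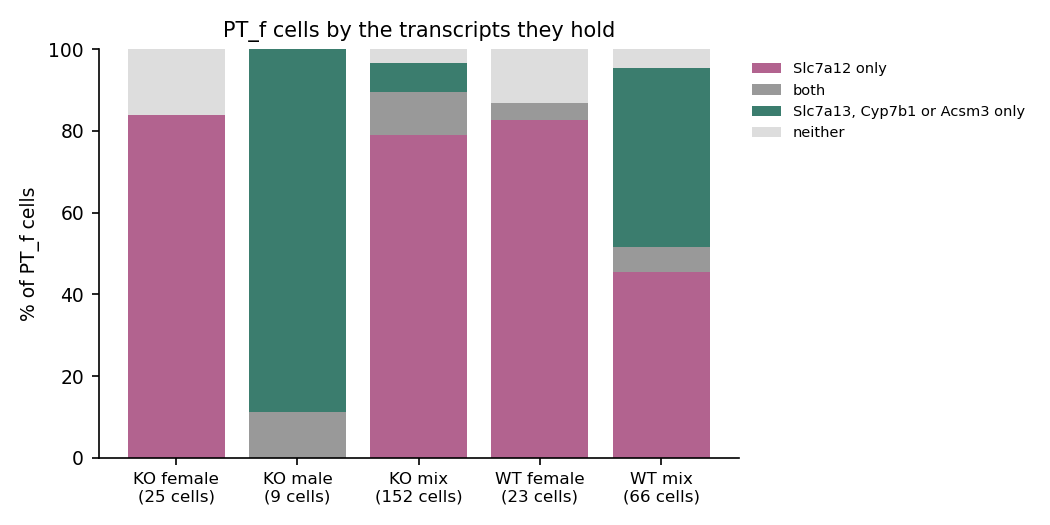
Percentage of PT_f cells in each library that held *Slc7a12* only, both kinds of transcript, *Slc7a13*, *Cyp7b1* or *Acsm3* only, or neither. The marker kind is 88.9% of KO male, 7.24% of KO mix and 43.9% of WT mix, and 0% of the female libraries.

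The kinds also differed in genes that had not sorted them, here as a description with exact Poisson intervals over summed counts. In KO mix *Xist* had 706 CPM (637 to 780) in the *Slc7a12* kind and 35.9 CPM (4.34 to 130) in the marker kind. In WT mix it had 511 CPM (395 to 650) and 9.22 CPM (0.233 to 51.4). Neither *Xist* nor Y-linked UMIs were found in 6 of 30 cells of the *Slc7a12* kind and 24 of 29 of the marker kind in WT mix. In KO mix this held for 43 of 120 and 6 of 11 cells. The *Xist*-only shares given above thus left out more of the marker kind. *Aadat* had 4684 and 305 CPM in KO mix and 4614 and 433 CPM in WT mix, in the same order of kinds. The organic anion transporter gene *Slco1a6* had 1373 and 108 CPM in KO mix and 1177 and 212 CPM in WT mix. *Acsm2*, an acyl-CoA ligase, had 109 and 1596 CPM in KO mix and 286 and 1236 CPM in WT mix, so it ran the other way, as did *Pank1*, a pantothenate kinase, with 120 and 825 CPM in KO mix and 201 and 793 CPM in WT mix. *Cyp2a4* was alike in both, with 554 and 538 CPM in KO mix and 472 and 535 CPM in WT mix. *Kap* was high in both, with 130512 and 100357 CPM in KO mix and 120650 and 98597 CPM in WT mix. *Slc22a7* had 737 CPM (667 to 813) in the *Slc7a12* kind and 394 CPM (247 to 597) in the marker kind of KO mix, intervals that did not overlap. In WT mix it had 913 CPM (756 to 1094) and 710 CPM (560 to 887), which did.

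Of 18 male-biased kidney genes 1 was higher in PT_f than in PT_s, *Kap*, and 8 were lower, against 3.8 and 5.3% of all genes tested. The rule leaves out KO male, where *Kap* had a log2 ratio of 0.19. There *Akr1c21* and *Adh1*, called lower, had 0.24 and 0.08, and the others called lower were below 0. With all UMIs counted, *Xist*-only cells were a larger share of PT_f than of PT_s in both pools. The part of sex makeup in these ratios was not tested. *Slco1a1*, an organic anion transporter, had 5.31 CPM in KO female, 684 in KO male, 26.1 in KO mix, 8.22 in WT female and 19.5 in WT mix. *Cyp4b1* had 10.6, 1889, 66.6, 32.9 and 226 CPM, and *Ugt2b38* 10.6, 1998, 72.4, 24.7 and 132 CPM. These genes were high in the 9 PT_f cells of KO male and low in PT_f of the female libraries. In the marker kind of KO mix and WT mix they were lower than in KO male. There *Slco1a1* had 35.9 and 0 CPM, *Cyp4b1* 287 and 258 CPM, and *Ugt2b38* 17.9 and 120 CPM. Of 11 tested female-biased kidney genes 6 were higher in PT_f, among them *Abcc3*, an efflux pump, with 117, 0, 91.3, 82.2 and 66.1 CPM in PT_f and at most 1.77 CPM in PT_s. *Cyp4a14* and *Spp1* were lower. *Hao2*, an oxidase of hydroxy acids, had 2428, 643, 646, 2038 and 412 CPM in PT_f and 4585, 1226, 1351, 4658 and 706 CPM in PT_s, a mean log2 ratio of -0.98 ± 0.18 that did not pass.

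The knocked-out gene *Ccdc198* was detected in PT_f of all libraries, with 154 CPM in KO female, 13.7 in KO male, 88.4 in KO mix, 173 in WT female and 81.7 in WT mix. The value of KO male is a single UMI. The inserted STOP codons need not remove the transcript, so its level does not check the genotype, and the counts used here do not show the sequence at the edit. The log2 fold change between KO and WT was -0.08 (SE 0.46, edgeR adjusted p = 1).

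No gene of PT_f passed the comparison of KO with WT libraries in a fit without a block. KO female and KO mix were compared with WT female and WT mix over 2629 genes by edgeR's quasi-likelihood test, and 0 (0%) had an adjusted p under 0.05, while 15 (0.571%) had an unadjusted p under 0.05. DESeq2 and limma-voom also called 0 genes, with 3 and 20 at an unadjusted p under 0.05. These counts lie far under a share of 0.05, which a calibrated test gives where nothing differs. The 3 fits took female and pooled libraries as replicates of each other, so 0 calls do not show that nothing differed. With the run as a block, described below, 137 of 2629 genes had an unadjusted p under 0.05 by edgeR. The genes with the lowest p-values are given next. With 2 libraries per group, a choice by p-value favours genes whose groups do not overlap, so their lack of overlap adds no support. *Egf*, the growth factor of the thick limb and distal tubule, had 74.4 and 57.9 CPM in KO female and KO mix and 197 and 160 CPM in WT female and WT mix. Its log2 fold change was -1.46 (SE 0.41, edgeR adjusted p = 1). In WT mix *Egf* had only 6 UMIs (46.4 CPM) in the *Slc7a12* kind of cells and 5 UMIs (46.1 CPM) in the marker kind. The 160 CPM of WT mix thus came mostly from the 4 cells with both kinds of transcript and the 3 with neither. *Elovl2*, a fatty acid elongase, had 95.6 and 76.8 CPM in the KO libraries against 32.9 and 27.2 CPM in the WT libraries, a log2 fold change of 1.47 (SE 0.48). *Cyfip2*, of the actin-regulating WAVE complex, and *Hdc*, histidine decarboxylase, had 1.57 (SE 0.52) and 1.43 (SE 0.49). *C1galt1c1*, a chaperone of O-glycosylation, and *Ccdc6* had -1.72 (SE 0.56) and -1.57 (SE 0.59). Each of these had an adjusted p of 1.

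In these 4 libraries the run of the annotation coincides with female against pooled. With the run as a block edgeR called 11 of 2629 genes (0.418%), 2 higher in KO (*Spp1* and *Xist*) and 9 lower (*Slc7a13*, *Cyp7b1*, *Acsm3*, *Acsm2*, *Akr1c21*, *Cyp4b1*, *Egf*, *Pank1* and *Zbtb20*). *Acsm3* had a log2 fold change of -2.38 (SE 0.38, adjusted p = 1.03e-06) under this block and -2.21 (SE 1.59, adjusted p = 1) without it. Its levels were 0 and 63.7 CPM in KO female and KO mix and 0 and 335 CPM in WT female and WT mix, so the call came from the pooled libraries. Those libraries also differed in their marker kind of cells, 11 of 152 in KO mix and 29 of 66 in WT mix. Genotype and sex makeup of the pools cannot be told apart for called genes that differ between the kinds. *Egf* was also lower in KO female than in WT female, with 74.4 and 197 CPM. Restricted to the cells without UMIs of the 3 markers, 25 in KO female, 125 in KO mix, 22 in WT female and 33 in WT mix, 0 of 1991 genes were called with the block, with 116 at an unadjusted p under 0.05, and 0 without it, with 5. With KO male included, 0 of 2577 genes were called, also when the run was blocked, whereas a block for sex composition gave 16. Without WT female, where WT mix is a lone library assumed to vary like the KO libraries, 9 of 3544 genes (0.254%) were lower in KO, among them *Cyp7b1*, *Acsm3*, *Akr1c21* and *Cyp4b1*.

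Whether the genotype difference in PT_f departed from that in PT_s was tested by a genotype by cluster term in a fit that kept each library as a block. Of 9637 genes 1 was called (0.0104%), *Cyp7b1*, with a log2 difference of -3.60 (SE 0.70, edgeR adjusted p = 0.00276). Its levels in PT_f were 0 and 50.7 CPM in KO female and KO mix and 0 and 230 CPM in WT female and WT mix, and in PT_s 0 and 15.1 CPM in the KO libraries and 0.209 and 4.78 CPM in the WT libraries. The call was lost with PT_c, the convoluted tubule cluster, in place of PT_s, by limma-voom, and without either pooled library.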

How the data were processed

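Cells came from 10x 3′ v3 libraries of kidney digested with collagenase and trypsin. The authors aligned and counted with Cell Ranger 4.0.0 on mm10 (GRCm38), and the deposited matrix holds raw UMI counts for 17389 genes. The authors removed cells under 1000 counts or over 50% mitochondrial counts and clustered the integrated data with Seurat 3.2.2.9001. The deposited annotation gives the percent of mitochondrial UMIs and a Scrublet doublet score per cell. No cell was removed as a doublet here.

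Counts were summed per library and cluster. Libraries with at least 10 PT_f cells, 4 of 5, entered edgeR 4.0.16 (TMM, default filter, robust, two-sided, Benjamini-Hochberg at 0.05). The fit was also run on simulated data. Its recovery is not reported here, so the text does not show which sizes of change could be called. DESeq2 1.42.0 and limma 3.58.1 under R 4.3.3 served as alternatives. Other values came from Python 3.11.15 with pandas 2.3.3, numpy 2.4.6 and scipy 1.17.1, and figures from matplotlib 3.10.9. CPM are relative to the UMI total, without TMM. PT_f sums held 73063 to 690327 UMIs, so that 3 counts equal 4.35 to 41.1 CPM.

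Named were the supplied markers and *Ccdc198*, the 20 highest PT_f to PT_s ratios (at least 100 CPM in pooled PT_f) and 15 lowest (at least 100 CPM in pooled PT_s) with 1 direction in the 4 libraries, the 3 lowest p-values per direction where no gene passed, up to 6 members per list with the highest level, and the sex chromosome genes. Some genes of this rule are not reported here. Other genes named by a count or a call were chosen after their values were seen. The members and lists were chosen with earlier results of these data known. Alternatives covered other tests, filters, blocks, depth, clusters and libraries.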

Additional observations from a re-analysis of the deposited data

Results flagged for a closer look

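*Cyp7b1* had a genotype difference in PT_f that departed from the one in PT_s by the test of the interaction itself, with a log2 value of -3.60. It had UMIs in 12 of 152 PT_f cells of KO mix and in 20 of 66 of WT mix. Between KO and WT in PT_f alone its log2 fold change was -1.99 (SE 1.47, edgeR adjusted p = 1). The call was lost with PT_c in place of PT_s, by limma-voom, and without either pooled library, and genotype and sex makeup of the pools cannot be told apart for it.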

How the results depend on the processing

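The call of 0 genes between KO and WT in PT_f gave 1 gene (*S100a6*) with no filter on low counts, 11 with the run or the sex composition as a block, which are the same split here, 0 to 9 when single libraries were left out (9 without WT female), and 16 with KO male included and the sex composition as a block. That alternative, the others with KO male and those on cells without the 3 markers were chosen after seeing the data. The other settings tried gave 0. The 1 gene of the interaction became 0 with PT_c or by limma-voom and 1 to 12 without single libraries (12 without WT female, 4 without KO female, 4 without WT mix). The log2 fold change of the cell number lay between -1.07 and 1.05 without single libraries (-0.06 without WT female), and the difference of the shares between -1.24 and 2.13 points. The log2 fold change of *Slc7a13* lay between -8.44 and 2.83, of *Acsm3* between -8.28 and 6.78, of *Slc7a12* between -0.24 and 0.9997 and of *ccdc198* between -0.43 and 0.31 without single libraries, the lowest values of the markers coming without KO mix and the highest without WT mix. With KO male included they were 1.06 (1.004 with the run as a block) for *Slc7a13*, 0.48 (0.45) for *Cyp7b1*, 0.37 (0.55) for *Acsm3* and -0.31 (-0.36) for *Slc7a12*, and *ccdc198* had 0.10 in cells with at most 25% mitochondrial UMIs. Of the leave-one-out fits, the one without WT female called *Acsm3* and *Cyp7b1* lower in KO.

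Genes higher in PT_f than in PT_s numbered 175, 93 with 50 CPM added, 300 against PT_c and 109 with KO male included. Genes lower numbered 244, 485 thinned to 1000 UMIs, 95 with 50 CPM added and 403 against PT_c. Against PT_c *Slc7a13* and *Acsm3* were higher in PT_f, with mean log2 ratios of 1.18 and 0.99, against -0.78 and -0.58 beside PT_s. These were the 2 of 390 alternative values over 39 genes that turned direction, and 64 others moved by more than the spread between libraries. Causes were not tested. No pairing by litter was possible because the labels number only the pooled libraries, both as 3. The run block sets KO female beside WT female and KO mix beside WT mix, which pairs the libraries by run and sex composition. The 9 cells of KO male and the 23 to 25 of the female libraries limit the depth.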

Other observations

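*Slc7a12* UMIs in PT_s were most frequent in KO mix. There 9.59% of PT_s cells held one, against 1.84 to 3.39% in the other KO libraries, 3.41% in WT female and 1.38% in WT mix. Its summed level in PT_1 and PT_2 of KO mix was 30.7 and 43.4 CPM, close to the 44.1 CPM of PT_s. KO mix was also the library with the most PT_f cells, and the part of free RNA in these levels was not tested.

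Of the 275 PT_f cells 271 had PT_f cells alone among their 15 nearest neighbours in the map.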
